A study of Mus musculus with 3 samples.

Results

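Lysyl oxidase and 8 genes of elastic fibres and the matrix around them were followed in lungs of mice that carried a subcutaneous tumour on the back and in a normal lung. The genes were Lox, Eln, Fn1, Fbln1, Fbln2, Mfap4, Mfap5, Dcn and Lum. Their probe sets were all those whose single symbol in the array's annotation was one of these names, 16 of 12422 probe sets and 9 of 8251 genes. The genes were chosen by their signals in the B16, LLC and control columns of these same arrays, so each difference below is a description of 3 arrays and not independent evidence.

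The study profiled total RNA of whole lung on Affymetrix mouse expression arrays, as a model of lungs reacting to a tumour elsewhere in the body before it has seeded them. One array held RNA of the lung of animals with tumours of B16, a mouse melanoma line (the B16 lung). Another held that of animals with tumours of LLC, the Lewis lung carcinoma line (the LLC lung), and the last that of a normal lung (the control lung). The labels do not give the strain, age, sex, time after injection or number of animals behind a sample. With 1 array per group there is no replicate error and no test.

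Elastic fibres give lung tissue its recoil. Their core is elastin, secreted as soluble tropoelastin, laid on a scaffold of fibrillin microfibrils and made insoluble by crosslinks that lysyl oxidase starts by oxidising lysine side chains. Fibulins and microfibril-associated proteins bind tropoelastin or microfibrils during assembly, fibronectin forms a provisional matrix on which other fibres are deposited, and decorin and lumican are small leucine-rich proteoglycans that bind fibrillar collagen. Lysyl oxidase and fibronectin are both known from work on the lung before metastases form.

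The RefSeq promoter table (build GRCm38.p6) held 2 of the 9 genes, the fibulin genes Fbln1 and Fbln2. Their upstream windows are shown because Fbln2 was among the genes higher in the B16 lung while the probe sets of its relative Fbln1 disagreed there. Each run is the 250 bases before the annotated start on the + strand, 5′ to 3′, with motif matches in capitals.
Fbln2, chr6:91212514-91212763: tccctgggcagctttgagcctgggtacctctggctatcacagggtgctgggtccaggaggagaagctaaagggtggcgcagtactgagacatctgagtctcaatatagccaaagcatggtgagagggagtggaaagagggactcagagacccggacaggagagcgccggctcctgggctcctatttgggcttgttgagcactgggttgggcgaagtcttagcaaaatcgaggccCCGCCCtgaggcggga
Fbln1, chr15:85205699-85205948: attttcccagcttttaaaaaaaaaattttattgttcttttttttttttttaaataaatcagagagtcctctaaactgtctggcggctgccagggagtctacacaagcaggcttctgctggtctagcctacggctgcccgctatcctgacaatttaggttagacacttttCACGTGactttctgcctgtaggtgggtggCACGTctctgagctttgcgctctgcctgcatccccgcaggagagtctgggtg
Searched on both strands were the motif TATAAA of core promoters, the GC box motif GGGCGG, the motif CCAAT of many promoters, the AP-1 motif TGANTCA and the motif ACGTG that forms the core of hypoxia response elements. The Fbln2 window held 1 GC box, a motif present in 32.7% of the 32851 windows of this length in the table, and none of the other motifs. The Fbln1 window held 3 matches to ACGTG, of which a pair overlap on opposite strands, and none of the other motifs; 16.6% of all windows held at least 1 such match. Another RefSeq start of Fbln1 lies just downstream, and its own window, which overlaps the one shown, held the same 3 matches and 1 GC box, as the Fbln2 window did. The RefSeq record of Fbln2 begins upstream of its window, at chr6:91212460. A match is a run of letters and no measured binding site.

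Against the control lung, 3 of the 9 genes were at least 2-fold higher in the B16 lung: Lox, Eln and Fbln2. None of the 9 was 2-fold lower. Of all 5968 genes measured in that comparison, 3.23% were higher by this much and 4.73% lower. In the LLC lung 0 of the 9 genes were 2-fold different in either direction, against 3.95% of 6000 genes higher and 2.98% lower. A gene is represented here by its brightest probe set, and it was measured if its signal was above a floor of 23.6, the 40th percentile of all values, on at least 1 of the 2 arrays compared. Signals are linear intensities scaled by 1 factor per array.

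Lox encodes the crosslinking enzyme itself. Its brighter probe set, 160095_at, had signals of 376 in the B16 lung, 37.0 in the LLC lung and 23.4 in the control lung. The control signal lay just under the floor, so the difference is a bound: Lox was at least 15.9-fold higher in the B16 lung (log2 difference 3.99) and by 1.57-fold or more in the LLC lung (0.65). Set on the floor in this way, Lox ranked 1 of 5968 genes by the difference between the B16 and control lung. Between the tumour-bearing lungs, both above the floor, the ratio was 10.2-fold (3.34). With a floor of 100 the B16 difference from control was 1.91, at rank 5 of 3543 genes, and with a floor of 10 it also ranked 5, of 6643.

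A second Lox probe set, 161177_f_at, read 262 in the B16, 95.1 in the LLC and 66.7 in the control lung. The suffix marks a probe set that can bind related sequences. It was above the floor on every array and gave the same order of the lungs, with 3.93-fold in the B16 lung (1.97) and 1.43-fold in the LLC lung (0.51). Both probe sets placed the B16 lung highest and the control lung lowest, and they differed in the size of the B16 difference (3.99 as a bound and 1.97).

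Eln encodes tropoelastin, the substrate of lysyl oxidase in elastic fibres. Probe set 92836_at read 843 in the B16 lung, 299 in the LLC lung and 215.5 in the control lung. That is 3.91-fold higher in the B16 lung (1.97) and 1.39-fold higher in the LLC lung (0.47). Probe set 92207_at read 151, 76.3 and 58.6 in the same order of lungs, 2.57-fold (1.36) and 1.30-fold (0.38) higher than control. Both probe sets thus ordered the lungs as those of Lox did, with the B16 lung well apart and the LLC lung slightly above control. By its brighter probe set Eln ranked 24 of 5968 genes in the B16 lung against control and 74 of 5984 in the B16 against the LLC lung.

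**Figure D1:**
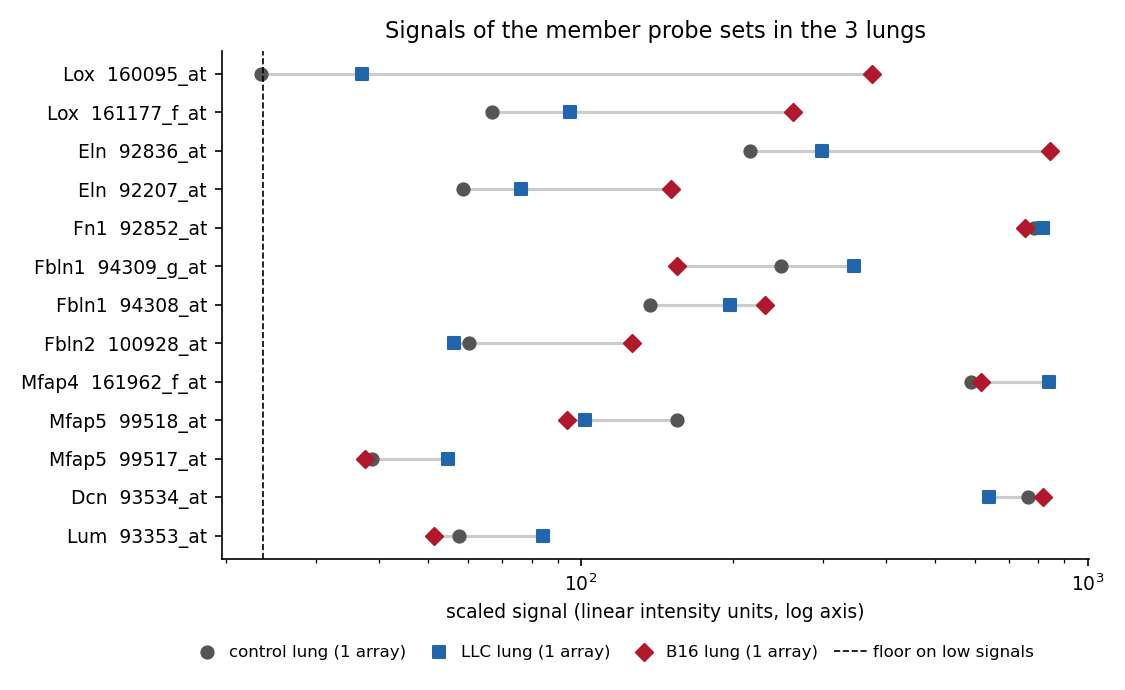
Scaled signals (linear intensity units on a log axis) of the 13 member probe sets above the floor on at least 1 array, each point 1 array. Both probe sets of Lox and of Eln and the probe set of Fbln2 have the B16 lung (diamonds) at the right, at 376 and 262, 843 and 151, and 126, while the lungs lie close together for Fn1 and Dcn.

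The fibulins bind elastic fibres and basement membranes. Fbln2 has 1 probe set, 100928_at, which read 126 in the B16 lung, 56.2 in the LLC lung and 60.1 in the control lung. It was 2.10-fold higher in the B16 lung (1.07), while the LLC and control lungs differed by a log2 value of −0.10. This difference is smaller against the spread at its brightness than that of Lox or Eln: among genes with a mean signal of 50 to 100 the robust SD of the B16 difference from control was 0.52, against 0.43 between 100 and 200 and 0.34 between 200 and 500. The Fbln2 difference was 0.34, under 2-fold, if the floor was set at 100.

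For Fbln1, 4 probe sets were present and 2 of them read below 0 on every array. The other two disagreed about the B16 lung. Probe set 94309_g_at read 155 in the B16, 346 in the LLC and 248 in the control lung, log2 differences from control of −0.68 and 0.48. Probe set 94308_at read 231, 197 and 137, differences of 0.76 and 0.52. Both put the LLC lung above control, by 1.40-fold and 1.44-fold, but one put the B16 lung lowest and the other highest. No direction is given for Fbln1 in the B16 lung.

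Mfap4 and Mfap5 encode microfibril-associated glycoproteins. Mfap4 read 615 in the B16, 838 in the LLC and 588 in the control lung on 161962_f_at, so it was 1.42-fold higher in the LLC lung (0.51) and close to control in the B16 lung (0.06). The suffix of this probe set, as for the second Lox one, marks possible binding of related sequences. The other Mfap4 probe set was below the floor throughout. Mfap5 read 94.0, 102 and 155 on 99518_at, 1.65-fold lower in the B16 lung and 1.52-fold lower in the LLC lung (−0.72 and −0.60). Its dimmer probe set, 99517_at, read 37.5, 54.6 and 38.8, differences of −0.05 and 0.49, so the probe sets disagreed about the LLC lung and the lower B16 value rests on 1 of them.

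Fn1, fibronectin, read 754 in the B16 lung, 817 in the LLC lung and 785 in the control lung. The lungs lay within 1.08-fold of each other (differences from control −0.06 and 0.06). Hepatocytes secrete plasma fibronectin, and 15 of 15 measured hepatocyte markers were higher in the LLC than in the control lung, their summed signal being 5750 against 735 in the control and 621 in the B16 lung, where Alb, serum albumin, was below the floor as in the control lung; their part in the Fn1 signal was not tested. Dcn, decorin, read 815, 640.1 and 762, differences of 0.10 and −0.25. Lum, lumican, read 51.2, 84.4 and 57.6, so it was 1.46-fold higher in the LLC lung (0.55) and near control in the B16 lung (−0.17). The proteoglycans did not share the order of the lungs seen for Lox and Eln.

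**Figure D2:**
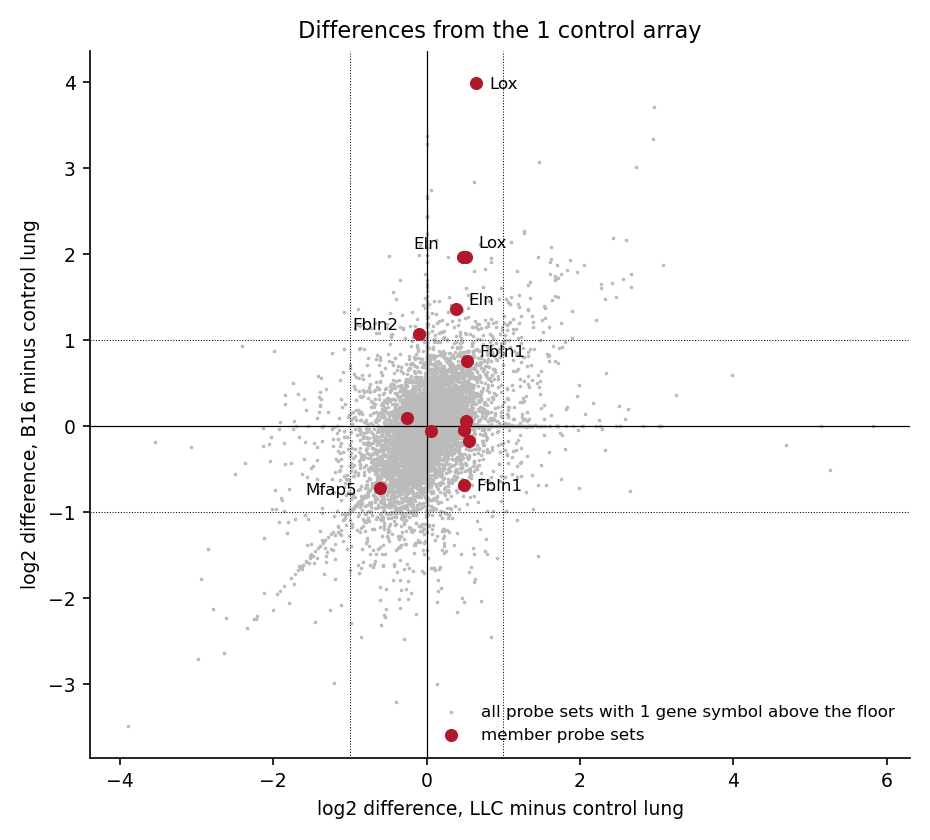
Log2 difference from the control array in the B16 lung (vertical) against the LLC lung (horizontal), for all probe sets with 1 gene symbol that were above the floor on any array (grey) and the member probe sets (red); dotted lines mark 2-fold. Both axes use the same control array and share its error; the probe sets of Lox, Eln and Fbln2 lie above 1 on the vertical axis and between −0.10 and 0.65 on the horizontal one.

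In the LLC lung the differences were small and mostly upward. Of the 9 genes 6 were higher and 3 lower than control, with a median log2 difference of 0.47, against a median of 0.00 over all 6000 genes measured. The highest was the bound for Lox, 0.65, and the lowest Mfap5, −0.60. At 1.5-fold, 1 gene was higher and 1 lower, against 9.32% and 9.07% of all genes. In the B16 lung 5 were higher and 4 lower, with a median of 0.06 (−0.01 over all genes), a lowest value of −0.72 and a highest of 3.99, so the 9 genes spread widely and did not move as a group. At 1.5-fold 3 were higher and 2 lower, Fbln1 on its brightest probe set and Mfap5, against 9.42% and 13.7% of all genes. Both comparisons use the same control array.

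The tumour-bearing lungs were also compared directly, which does not use the control array except through scaling and the floor. Lox, Eln and Fbln2 were the members at least 2-fold higher in the B16 lung (3.34, 1.49 and 1.17), against 3.41% of 5984 genes. The B16 array is the same one as in the comparison with control. The Fbln2 value was 0.82 with the floor at the 60th percentile and 0.34 with a floor of 100, both under 2-fold. Fbln1 on its brightest probe set was 2.24-fold lower (−1.16), against 4.95% of genes; its other probe set gave 0.23. At 1.5-fold the same 3 were higher, against 9.14%, and Lum joined Fbln1 on the lower side at −0.72, against 12.8%.

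Agreement between probe sets was also examined across the whole array. Of the 1034 genes with more than 1 probe set above the floor on any array, 51.3% had all of them on the same side of control in the B16 lung and 49.7% in the LLC lung. A difference of 0, where both signals compared were under the floor, was counted as not on the same side, which lowers these shares. Agreement could be examined for 4 members, and 3 agreed in the B16 lung (Lox, Eln and, by a log2 difference of −0.05 on one side, Mfap5) and 3 in the LLC lung (Lox, Eln and Fbln1). In the B16 lung 26 genes with several probe sets were at least 2-fold higher on the brightest one. For 16 of them the second was also above control and for 5 it was at least 2-fold higher. Lox and Eln were 2 of these 5.

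**Figure D3:**
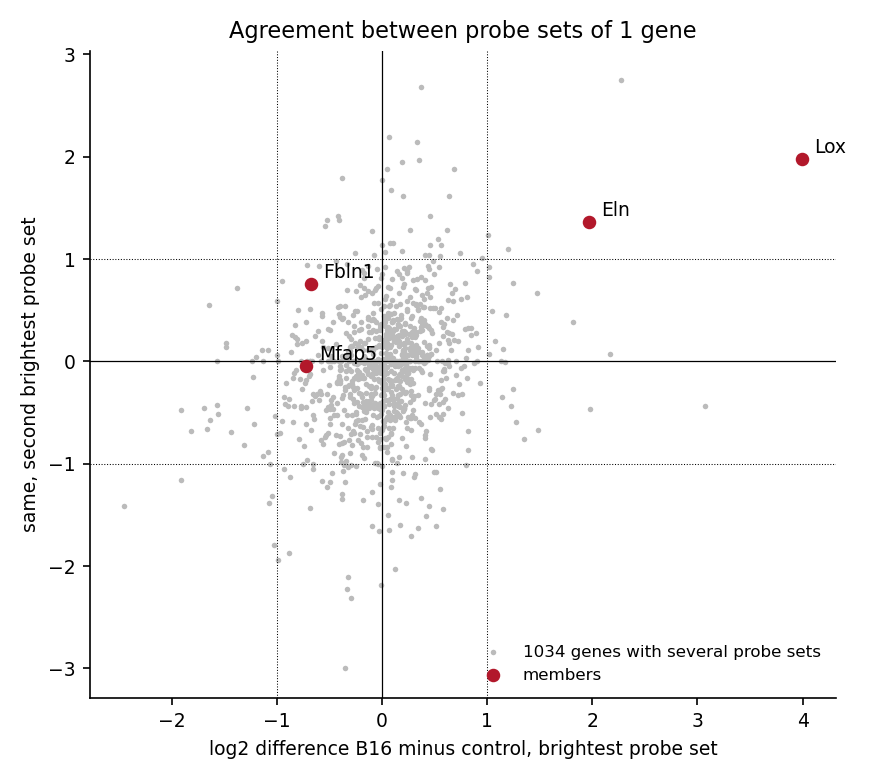
Log2 difference of the B16 from the control lung on the brightest probe set of a gene (horizontal) and on its second brightest (vertical), for the 1034 genes with several probe sets above the floor (grey), with the members in red; dotted lines mark 2-fold. Lox (3.99 and 1.97) and Eln (1.97 and 1.36) lie beyond 2-fold on both axes, and Fbln1 (−0.68 and 0.76) lies on opposite sides.

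The pattern of Eln was most like that of 3 other genes among the 5136 above the floor on all 3 arrays, by the distance between the pairs of log2 differences from control. They were Mt2, a metallothionein that binds zinc and copper, with signals of 1152, 430 and 266 in the B16, LLC and control lung (distance 0.26), Frat1, an inhibitor of glycogen synthase kinase 3, with 111, 52.0 and 36.3 (0.36), and Znrf4, a ring-finger protein, with 103, 47.6 and 26.6 (0.37). The likeness rests on 3 arrays. Lox was not above the floor on the control array and was not matched.

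Other genes of the pathway came from lists of 76 genes, of which 48 were on the array with a single symbol and 32 were measured in the B16 lung against control. Past 2-fold there were 1 higher and 1 lower, against 3.23% and 4.73% of all genes. In the LLC lung 33 were measured, of which 4 were higher and 1 lower by this much, against 3.95% and 2.98%. Over these lists the median log2 differences were 0.19 and 0.17, against −0.01 and 0.00 over all genes. So no measured gene of these lists had a value as high as that of Lox or Eln in the B16 lung at this floor. The highest was 1.17 for Neu1. That value is a lower bound because the Neu1 control signal was under the floor, so the size of its difference is not known.

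Of the other lysyl oxidases, Loxl1, which is needed for elastin renewal, was the 1 measured. It read 127 in the B16 lung, 59.99 in the LLC lung and 140.3 in the control lung. It was thus 2.34-fold lower in the LLC lung (−1.23) and near control in the B16 lung (−0.15), unlike Lox. Bmp1, the protease that activates the lysyl oxidase precursor, read 93.3, 94.6 and 67.9 (0.46 and 0.48) on its brightest probe set. Another Bmp1 probe set read 70.1, 63.8 and 76.2 (−0.12 and −0.26), so no direction is given for it. Postn, periostin, which helps Bmp1 act on that precursor, read 711, 706 and 895 (−0.33 and −0.34).

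Genes of microfibrils and elastic fibre assembly were mostly higher in the B16 lung. Of 7 measured, 6 were above control there, with a median of 0.61 against −0.01 over all genes, and 5 in the LLC lung, with a median of 0.09. At 1.5-fold 4 of the 7 were higher and 0 lower in the B16 lung, against 9.42% and 13.7% of all genes. The 4 were Mfap2, Ltbp1, Ltbp3 and Neu1. Ltbp1 (0.62) and Neu1 were dim, and at mean signals of 23 to 50 the robust SD of this difference was 0.64. At 50 to 100, where Ltbp3 lay, it was 0.52. The gene below control in the B16 lung was Ctsa, with 125, 239 and 168 (−0.42 and 0.50), the highest LLC difference of the list. In the LLC lung 0 were higher and 1 lower by this much, against 9.32% and 9.07%. Mfap2, the microfibril-associated glycoprotein MAGP-1, read 299, 206 and 196 in the B16, LLC and control lung (0.61 and 0.07). The latent TGF-beta binding proteins read 133, 108 and 97.7 for Ltbp2 (0.44 and 0.15) and 82.6, 57.9 and 51.6 for Ltbp3 (0.68 and 0.17). Ltbp4, which guides elastin assembly in the lung, read 888, 492 and 801 (0.15 and −0.70), so its lowest signal was in the LLC lung, as for Loxl1. The 1 gene past 2-fold was Neu1, a sialidase of the elastin-binding receptor complex, with 53.1 and 25.1 in the tumour-bearing lungs and no control signal above the floor, 2.25-fold higher or more in the B16 lung. Fbn2, fibrillin 2, was below the floor on all 3 arrays, and Ltbp1 was above it on 2, at 40.2 in the B16 and 26.2 in the control lung.

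Among elastin-degrading enzymes and their inhibitors 7 of 9 measured genes were above control in the B16 lung and 8 of 9 in the LLC lung, with medians of 0.43 and 0.30. The inhibitors Slpi and Serpina1b were among those above control in both lungs. Below control in the B16 lung were Ctss, at 609 against 975 (−0.68), and Ctsl, at 572 against 625 (−0.13). The summed signals of the list were 2219, 3250 and 2375 in the B16, LLC and control lung. Of these sums the inhibitor Serpina1b made up 130, 694.5 and 113, so much of the higher LLC sum is this 1 gene. Of the 9 genes 0 were counted past 2-fold in the B16 lung, against 3.23% of all genes higher and 4.73% lower. In the LLC lung 3 were higher and 0 lower by this much, against 3.95% and 2.98%. Mmp9, a gelatinase, read 150.4 in the LLC lung against 54.0 (1.48; 77.6 in the B16 lung), and Serpina1b 694.5 against 113 (2.62). A second Mmp9 probe set was below the floor on every array, so the Mmp9 value rests on 1 probe set. Prtn3, a neutrophil protease, read 44.8 in the B16 and 47.2 in the LLC lung where control was below the floor. Its differences are bounds of 1.90-fold and 2.002-fold or more, so it may be past 2-fold in both lungs, and the LLC bound lay under 2-fold with each of the 3 other scalings. Serpina1b is an elastase inhibitor made by hepatocytes and is also one of the hepatocyte markers above, so it is no elastin-degrading enzyme. Mmp12, macrophage elastase, read 135, 136 and 113 (0.26 and 0.27) on its brighter probe set, while the other was below the floor on every array.

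The other small leucine-rich proteoglycans were close to control. Bgn, biglycan, read 2281, 2152 and 2078 (0.13 and 0.05). Chad, chondroadherin, read 244, 181 and 188 (0.38 and −0.05). Ogn, osteoglycin, read 824, 629.9 and 779 on its brightest probe set (0.08 and −0.31), while a second one read 525, 650.2 and 859.7 (−0.71 and −0.40), so the probe sets disagreed about the B16 lung. Epyc, Fmod, Kera and Omd were below the floor on all 3 arrays.

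Of fibronectin receptors and partners, 1 of 8 was 2-fold lower in the B16 lung, against 4.73% of all genes. In the LLC lung 1 of 9 was 2-fold higher, against 3.95%. Itga8, an integrin chain that binds fibronectin, read 55.6, 84.9 and 116.6 (−1.07 and −0.46). Hspg2, perlecan, read 88.8 in the LLC lung, −129 in the B16 lung and −75.3 in the control lung. Its bound, at least 3.76-fold higher in the LLC lung, rests on a probe set that read far below 0 on the other arrays. Itgb1, the beta chain of the main fibronectin receptors, read 1589, 1632 and 1596 (−0.01 and 0.03).

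**Figure D4:**
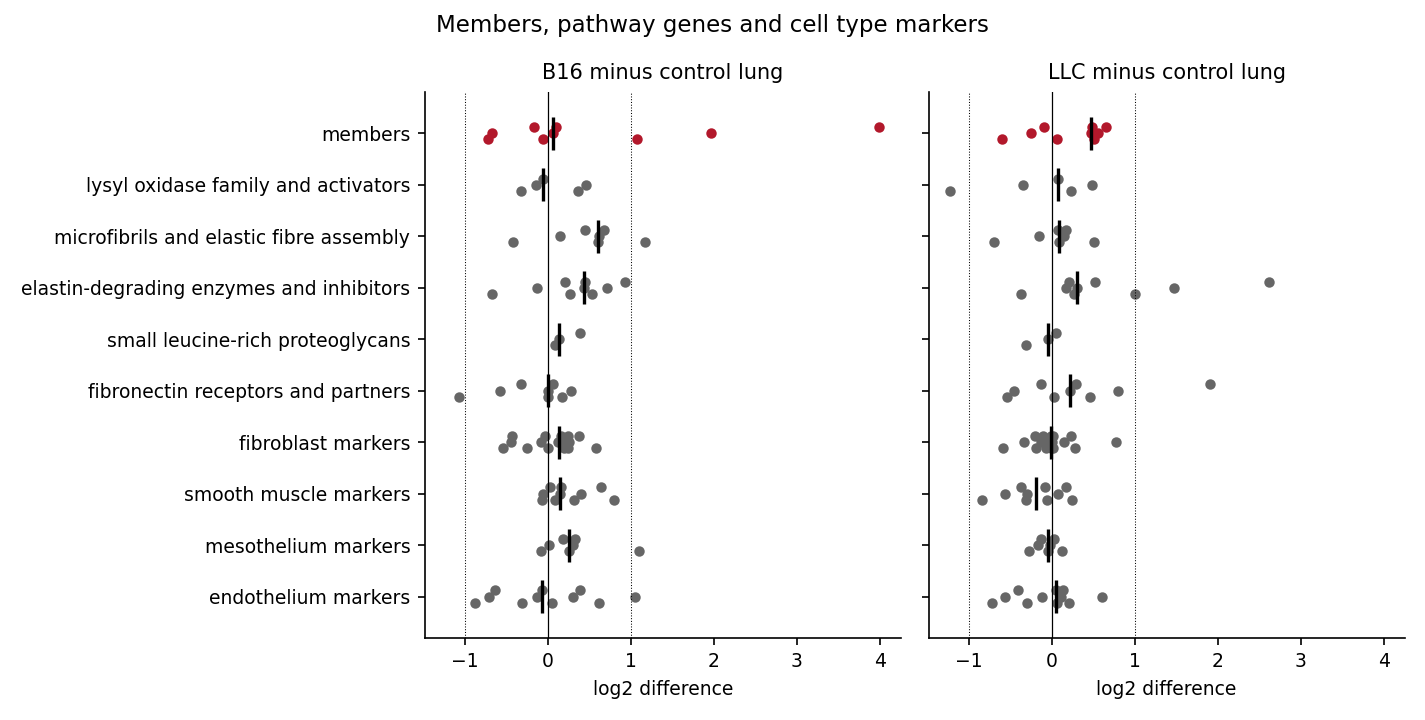
Log2 differences from the control lung of the members (red) and of genes in pathway and cell type lists (grey), 1 point per measured gene on its brightest probe set, with the list median as a vertical bar; dotted lines mark 2-fold. In the B16 lung Lox and Eln, at 3.99 and 1.97, lie to the right of every listed gene. The highest listed value is 1.17, a lower bound for Neu1.

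Elastin and lysyl oxidase are made by smooth muscle cells, fibroblasts and mesothelial cells, so markers of these cells are given beside them. In whole lung, more cells of a type and more RNA per cell cannot be told apart. Over all genes, 3.23% were 2-fold higher and 4.73% lower in the B16 lung. Of 16 measured fibroblast markers 9 were above control in the B16 lung and 0 past 2-fold, with a median of 0.14 and summed signals of 10603, 9866 and 10059 in the B16, LLC and control lung. Col1a1, Col1a2 and Col3a1, chains of fibrillar collagen that lysyl oxidase also crosslinks, read 279.6, 432 and 326 in the B16 lung against 296, 334 and 218 in the control lung (−0.08, 0.37 and 0.58). Second probe sets of these chains gave 0.47, −0.08 and −1.44, so for each of the 3 genes the probe sets disagreed about the B16 lung. The differences of the 16 fibroblast markers, each on its brightest probe set, ran from −0.54 to 0.58.

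Of 10 smooth muscle markers 8 were above control in the B16 lung, 0 past 2-fold, with a median of 0.15 and summed signals of 4831, 4015 and 4392. Des, desmin, had the highest difference among them at 192 against 111 (0.79). The brightest marker, Actg2, was near control (0.03), on a probe set whose suffix marks possible binding of related sequences. Acta2, smooth muscle actin, read 445, 223 and 402 (0.14 and −0.85), and 7 of the 10 markers were below control in the LLC lung. Of 7 mesothelium markers 6 were above control in the B16 lung, with a median of 0.26 and summed signals of 2909, 2688 and 2720. Msln, mesothelin, was past 2-fold with 51.1 against 23.9 (1.10), its control signal just above the floor of 23.6. Among genes with a mean signal of 23 to 50 the robust SD of the B16 difference from control was 0.64. Of 11 endothelium markers 5 were above control in the B16 lung and 6 below, with a median of −0.07 and summed signals of 8633, 7944 and 7675. Vwf was past 2-fold at 732 against 354 (1.05), while Emcn was the lowest at 111 against 204 (−0.88). The part of these cells in the Lox, Eln and Fbln2 values was not tested.

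Other differences between the samples stand beside these results. Of the melanocyte markers, 3 were measured in the B16 lung, with differences of −0.13 to 0.15 from control, and 4 in the LLC lung. There Dct, dopachrome tautomerase, read 196 and was below the floor in the B16 and control lungs, at least 8.30-fold higher (3.05), while Pmel, a melanosome protein, read 40.7 against 85.9 (−1.08). Striated muscle markers were lower in both tumour-bearing lungs for 11 of 11 genes, with summed signals of 1697, 1243 and 3062. In the B16 lung 3 of 5 adipocyte markers were past 2-fold lower, against 4.73% of all genes. Macrophage markers had medians of −0.47 and 0.10, lung epithelium markers of 0.27 and 0.13, and cartilage markers of −0.01 and −0.24. The 3' to 5' ratio of the Gapdh control probe sets was 1.20 in the B16, 1.001 in the LLC and 0.957 in the control lung, and that of beta-actin 1.56, 1.47 and 1.44. The part of muscle, fat and RNA quality in the member values was not tested.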

How the data were processed

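Per the labels' protocols, lung RNA was extracted with TRIzol and labelled with biotin as cRNA following Affymetrix. The deposited intensity is linear, with 1 value for each probe set on an array and some values below 0; the array software is not given in the sources. Of 12488 probe sets, 66 controls were set aside. GEO's platform annotation named a single gene for 10833, of which 10817 matched RefSeq by gene ID, and more than 1 gene for 396; 1193 had no name. Arrays were scaled so that the median log2 ratio to control was 0 over the brighter probe sets (factors 0.987, 1.01 and 1), floored at the 40th percentile (23.6), and log2 differences were taken. A difference against a side below the floor is a lower bound. Genes past 2-fold were counted; robust SD is the scaled median absolute deviation.

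The named genes were the 9 members, pathway genes past 2-fold in either tumour-bearing lung and measured relatives of the members. Some markers and the 3 genes most like Eln were also named. The named markers were not in general the brightest of their list or past 2-fold. Not every marker is printed, and a few further list genes were named after their values were seen. The members and the 16 lists were chosen with earlier results of these data known. The steps were tested on simulated arrays. Alternatives were other floors, scalings, averaging of probe sets and a 1.5-fold limit. Python 3.11.15, numpy 2.4.6 and pandas 2.3.3 were used. There is no read depth in array data, so precision is limited by the number of arrays.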

Additional observations from a re-analysis of the deposited data

Results flagged for a closer look

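Fbln1 differed from control in opposite directions in the tumour-bearing lungs on its brightest probe set, by more than the robust SD of all genes in each comparison. Its values were −0.68 (B16) and 0.48 (LLC) on the log2 scale. The difference was not tested, since each lung is 1 array, and the other Fbln1 probe set above the floor gave 0.76 and 0.52, on the same side in both.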

How the results depend on the processing

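No paired analysis was possible because each group has 1 array, and leaving one out removes the group. Members past 2-fold in the B16 lung against control numbered 3 under the other scalings, with averaged probe sets and with a floor of 10, and 2 with the floor at the 60th percentile or at 100, where Fbln2 was under 2-fold. With a 1.5-fold limit there were 5, and in the LLC lung 2. The Lox difference in the B16 lung from control ranged from 1.91 to 4.01 and that of Eln from 1.66 to 1.99. Counts of pathway genes past 2-fold moved more. In the B16 lung against control they were 0 with the floor at the 60th percentile or at 100, 5 with a floor of 10, 1 after quantile normalization and 8 at 1.5-fold. In the LLC lung they were 2 with the floor at the 60th percentile and 1 with a floor of 100, and between the tumour-bearing lungs 1 with either of these floors and 12 at 1.5-fold. With a floor of 100, 1 of 3 members was counted as having probe sets that agreed in the LLC lung. The Lox probe sets and the dimmer Eln one were under that floor in both the LLC and the control lung. Their difference was then 0, which was not counted as agreement, so the lower count shows no opposite directions. A higher floor leaves fewer genes measured. Over all genes, 193 were 2-fold higher and 282 lower in the B16 lung, 37 and 33 with a floor of 100 and 344 and 491 with a floor of 10; in the LLC lung these were 237 and 179, 43 and 18, and 384 and 345.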

Other observations

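The other genes whose brightest and second probe sets were both past 2-fold in the B16 lung, above control, next to Lox and Eln, were Angptl4, Cdkn1a and Qsox1; they were singled out after their values were seen. Cdkn1a, the cell cycle inhibitor p21, read 738 in the B16, 369.8 in the LLC and 153 in the control lung on its brighter probe set (2.27 and 1.27), and 158, 24.5 and a signal below the floor on the other. Angptl4, an inhibitor of lipoprotein lipase, read 357, 214 and 178 (1.01 and 0.27), and 291, 141 and 123.5 on the other. Qsox1, a secreted sulfhydryl oxidase that forms disulfide bonds in matrix proteins, read 151, 114 and 65.7 (1.20 and 0.80), and 121, 76.8 and 56.6 on the other. In each of these genes the B16 lung was highest on both probe sets, with the LLC lung between it and the control lung.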
